A study of Mus musculus with 9 samples.

Results

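The genes of the cytosolic ribosomal proteins were followed in 3 groups of mouse B cells. Members were taken by symbol: the Rpl and Rps genes with a number, Rpsa, Rplp0, Rplp1 and Rplp2, and the pseudogene Gm15772, which is read together with Rpl26. This gave 83 of the 22178 genes in the table, 31 of the small subunit, 51 of the large subunit and the pseudogene. In all, 80 of the 83 reached a mean of 1 TPM over the 9 libraries and were tested. The other 3 were the tissue-restricted paralogs Rpl10l, Rpl3l and Rpl39l. TPM is a length-corrected share of all transcripts of a library, per fixed total, so levels can be compared between genes but the sequencing depth is unknown.

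RNA-seq was run on polyA RNA, with 3 libraries per group. B2 cells, the conventional B cells, came from spleen and carry the strain label VH12B1-8/Vk4. B1 cells, which are common in body cavities, were peritoneal, with the strain label B1-8VH12/Vk4. B2B1 cells have B1's tissue and strain label, and their B cell receptor (BCR) had been switched about 30 days before isolation. All mice were on a backcrossed C57BL/6 background. Tissue and strain label change together with the cell type in both comparisons with B2, so these cannot be told apart. Whether each library is from its own mouse is not stated, so p-values reflect the spread between these samples alone, part of which may be technical. Xist, an RNA made by female cells, was at 280.8, 0.4116 and 278.8 TPM in B2 and at 0.4605, 0.3554 and 180.4 in B2B1. The 3 libraries of B2 are therefore not all from the same mouse, nor are those of B2B1. In B1, Xist was at 211.7, 298.1 and 223.1 TPM, so sex is not balanced over the groups.

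Cd79a, a signalling chain of the B cell receptor, was at 2393 to 3098 TPM in the 9 libraries. The 4 markers of B-2 cells (Fcer2a, Cr2, Icosl and Ccr6) summed to 2310 to 2615 TPM in B2, 7.59 to 17.3 in B2B1 and 15.7 to 26.8 in B1. The 5 markers of B-1 cells summed to 19.0 to 19.3 TPM in B2, 1054 to 1276 in B2B1 and 651 to 786 in B1. One of them, Cd5, which defines the B-1a subset, was at 0.609 to 1.09 TPM in B2, 1.22 to 1.85 in B2B1 and 13.4 to 22.9 in B1, so the B2B1 libraries were near the B2 level. The 7 macrophage markers found in the table were all above 0 in at least 1 library of each group and summed to 1.15 to 2.30 TPM in B2, 63.4 to 239 in B2B1 and 21.1 to 45.8 in B1. The 12 cell cycle genes summed to 239 to 263 TPM in B2. Their sum was 400 TPM in B2B1 library 1 against 280 and 304 in the other B2B1 libraries, and 390 in B1 library 2 against 210 and 217 in the other B1 libraries. The 7 markers of T and NK cells summed to 6.40 to 8.87 TPM in B2, 4.23 to 8.01 in B2B1 and 16.3 to 18.9 in B1. Of the 3 that were tested, 1 was called higher in B1 than in B2 (18% of all genes). In B2B1 against B1, 2 were called lower (12.1% of all genes). Cd3e, which defines T cells, was at no more than 0.0837 TPM in any library, so the higher B1 sum comes from other markers of the list. Red cell genes summed to at most 11.0, 5.74 and 14.8 TPM, with Hbb-b2 at 0 in all libraries, and stromal genes to at most 0.477 TPM in any library, with Msln, Upk3b and Wt1 at 0. The part of such other cells, of macrophage RNA and of cell cycling in the results below was not tested.

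A ribosome is built from a small subunit, which reads the messenger RNA, and a large subunit, which joins the amino acids. Each subunit holds ribosomal RNA and its own set of proteins, most of them in a single copy. The mRNAs of these proteins are among the most abundant of growing cells, and they begin with a run of pyrimidines (C and T), the TOP motif, through which nutrient and mTOR signals set their translation. In lymphocytes the supply of ribosomes rises with activation and growth.

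Starts of genes that differ in the comparisons below are shown first, since the mRNAs of these genes are known to begin with pyrimidines. Each is 50 bases of the gene strand, 25 before and 25 after the RefSeq transcript start (GRCm38.p6), with the longest run of C and T in capitals.
Rplp0 (chr5:115559442-115559491, plus strand): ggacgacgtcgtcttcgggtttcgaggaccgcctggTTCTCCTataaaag
Rps12 (chr10:23787185-23787234, minus strand): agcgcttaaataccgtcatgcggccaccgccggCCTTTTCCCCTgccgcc
Rpl14 (chr9:120571492-120571541, plus strand): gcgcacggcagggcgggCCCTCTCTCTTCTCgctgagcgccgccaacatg
Rps27 (chr3:90213624-90213673, minus strand): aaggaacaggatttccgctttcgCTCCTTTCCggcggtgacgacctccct
Rpl12 (chr2:32961687-32961736, plus strand): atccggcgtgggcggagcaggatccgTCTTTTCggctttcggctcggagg

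The first 3 genes were called higher in B1 and in B2B1 than in B2, and the last 2 had lower means in both, with Rpl12 called only in B1. The longest pyrimidine run was 7 bases in Rplp0, 11 in Rps12, 14 in Rpl14, 9 in Rps27 and 7 in Rpl12. A longest run is marked in every window by definition, and its median over all 32851 RefSeq windows was 5 bases. With the annotated start as base 1 and the base before it as −1, the runs in these genes begin at 12, 9, −8, −2 and 2. They mark pyrimidines near the annotated start and not the TOP motif as such. RefSeq windows were found for 62 of the 83 members (74 starts). A run of 8 or more lay in 45.9% of the member windows of 50 bases and in 19.7% of all 32851 windows. In the full windows of 300 bases (250 before the start), CCGGAAG on either strand was in 35.1% of member windows and 8.86% of all, and CTTTCC on the gene strand in 37.8% and 14.1%. TATAAA on the gene strand was in 8.11% of member windows and 8.32% of all. In the last 100 bases the shares were 17.6% and 5.21% for CCGGAAG, 29.7% and 4.69% for CTTTCC, and 6.76% and 3.4% for TATAAA. The 3 motifs, the windows and the run length of 8 were chosen after member sequences and first counts had been seen, so these shares are a description. They describe letters in a window, not binding or use.

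The summed TPM of the 83 members made up 24.18%, 25.79% and 25.87% of all transcripts in the 3 B2 libraries, with TPM taken to cover all. In B2B1 they made up 28.01%, 29.72% and 28.61%, and in B1 27.47%, 29.06% and 25.89%. All B2B1 libraries lay above all B2 libraries, while the lowest B1 library was just above the highest B2 library. As a percent of the summed TPM of the listed genes, B2 reached at most 27.74% and B1 began at 28.94%. The mean share was 25.3 ± 0.952% in B2, 28.8 ± 0.865% in B2B1 and 27.5 ± 1.58% in B1 (SD, n = 3 here and throughout). An exact two-sided permutation test gave p = 0.1 for each group against B2, the smallest p that 3 against 3 allows, and p = 0.3 for B2B1 against B1. Over the 27 such tests that were computed (9 measures in 3 comparisons) the adjusted values were 0.135, 0.135 and 0.352. In every library 67 to 70 of the 100 genes with the highest TPM were members.

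**Figure D1:**
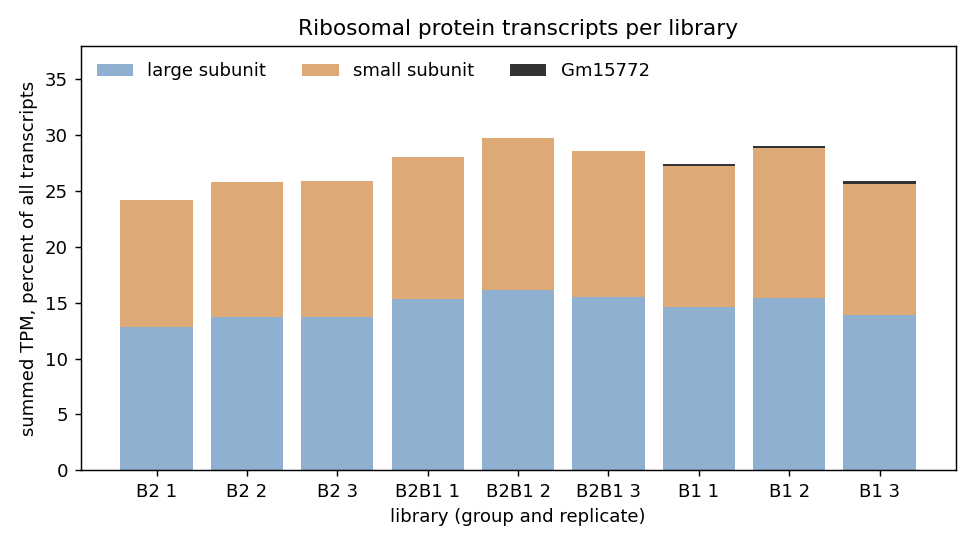
Summed TPM of the ribosomal protein genes as a percent of all transcripts, stacked by subunit, for each of the 9 libraries. B2 libraries reach 24.18% to 25.87%, B2B1 libraries 28.01% to 29.72% and B1 libraries 25.89% to 29.06%. Gm15772 is visible only in the B1 bars.

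Within the member sum, the small subunit held 46.8 ± 0.0327% in B2, 45.6 ± 0.279% in B2B1 and 45.8 ± 0.283% in B1. No B2B1 or B1 library reached the lowest B2 library (exact permutation p = 0.1 in both cases, the smallest possible, and 0.135 adjusted). The difference from B2 was 1.25 percentage points for B2B1 and 0.981 for B1.

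Each member was tested in a limma fit of log2(TPM + 1) over all 11099 genes and called at a Benjamini-Hochberg adjusted p under 0.05. In B1 against B2, 28 of the 80 tested members were higher and 4 lower, while 18% of all genes tested were called higher and 33.9% lower. In B2B1 against B2, 44 members were higher and 2 lower, against 21% and 42% of all genes. The median log2 fold change of the members was 0.15 in B1 and 0.20 in B2B1, where the median of all genes was −0.14 and −0.19. Both comparisons use the same B2 libraries, so their values stand side by side and are not independent. Groups did not overlap, upwards, for 39 members in B1 and 55 in B2B1 (21.9% and 24.5% of all genes), and downwards for 7 and 6 (39.8% and 47.7% of all genes).

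B2B1 against B1 gave few calls, with 3 members higher and 1 lower, at a background of 6.93% and 12.1% of all genes. The members' median log2 fold change was 0.08 and that of all genes −0.06. Rpl26 and Gm15772, described below, were 2 of the 4. The others were Rpl3, a protein at the peptidyl transferase centre (log2 fold change 0.24 ± 0.0687 SE, adjusted p = 0.0438), and Rpl22 (0.18 ± 0.0528, adjusted p = 0.0468). Of the 23 alternative settings, Rpl3 was called in 10 and Rpl22 in 5.

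Most changes of members were small beside the spread of the family's levels. Mean levels of the 79 members above 100 TPM ran from 135.8 to 11020 TPM. The members with the highest mean were Rps27, Rplp1, Rps12, Rps18 and Rpl32, and the tested members with the lowest were Rpl7l1, Rps27l, Rps15a, Rpl22 and Rpl15. Rpl39l, a testis paralog, was at 0 to 1.98 TPM, just under the limit for testing. Rpl3l, a muscle paralog, was at 0 in the B2 libraries and at most 0.329 TPM elsewhere. Rpl10l, another testis paralog, was listed at 0 in all 9 libraries. By mean level, no member lay between this limit and Rpl7l1, the lowest tested member, at 72.1 to 81.3 TPM. Gm15772 was below Rpl7l1 in every B2 and B2B1 library, and its mean passed 100 TPM only through B1.

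**Figure D2:**
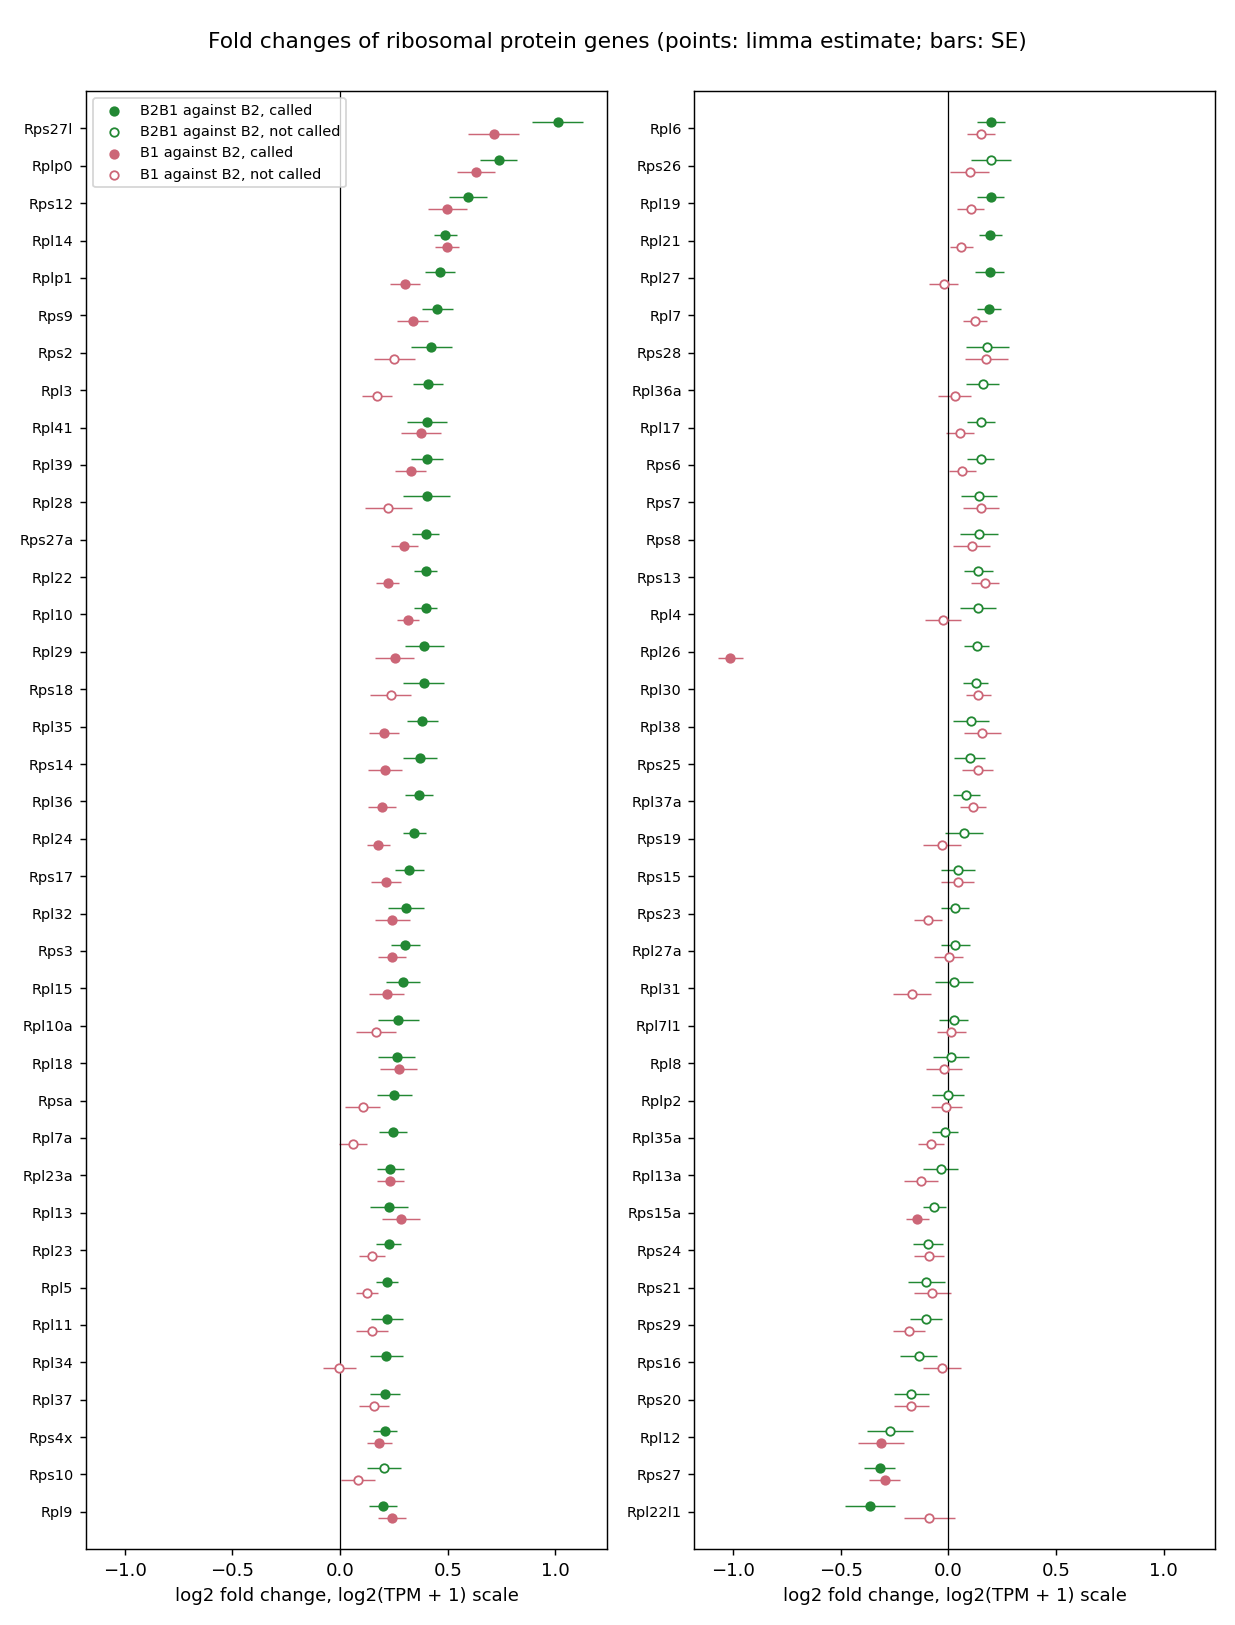
Log2 fold change with its SE, on the log2(TPM + 1) scale, of B1 (pink) and B2B1 (green) against B2 for 76 tested members; filled points were called. Rps27l and Rplp0 lie farthest to the right, and Rpl26 in B1 lies at −1.01, apart from the rest.

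Among the 31 small-subunit genes, 10 were higher and 2 lower in B1 (32.3% and 6.45%, against 18% and 33.9% of all genes), and 12 higher and 1 lower in B2B1 (38.7% and 3.23%, against 21% and 42%). Rps12, a small protein of the subunit's beak, was at 5240, 5578 and 5583 TPM in B2, 7707, 8942 and 8152 in B2B1, and 7124, 8629 and 7488 in B1. Every peritoneal library was above every B2 library. The log2 fold change was 0.50 ± 0.0897 in B1 (adjusted p = 0.00154) and 0.59 ± 0.0897 in B2B1 (adjusted p = 0.000395). On chromosome 10 the gene spans 23785183 to 23787275 (GRCm38, GENCODE M21, as for all coordinates of genes here).

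Rps9, which helps keep decoding accurate, rose from 4919 ± 231 TPM in B2 to 6725 ± 298 in B2B1 (log2 fold change 0.45, adjusted p = 0.000578) and 6220 ± 399 in B1 (0.34, adjusted p = 0.00406). Rps9 and Rps12 kept their calls in both comparisons with B2 in all 23 alternative settings.

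Rps27, a zinc finger protein of the small subunit and the member with the highest mean level, was lower in both groups than in B2. It was at 12133, 12900 and 12859 TPM in B2, 9522, 10055 and 10818 in B2B1, and 10362, 10495 and 10010 in B1. No peritoneal library reached the B2 range, and both calls held in 21 of the 23 alternatives. The log2 fold change was −0.30 ± 0.0706 in B1 (adjusted p = 0.00694) and −0.32 ± 0.0706 in B2B1 (adjusted p = 0.0036). The gene lies on chromosome 3 from 90212522 to 90213651.

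Its paralog Rps27l, known as a target of p53, went the other way. Its level was 79.3, 93.6 and 88.0 TPM in B2, 207, 152 and 172 in B2B1, and 141, 158 and 130 in B1. This was the highest fold change among members other than Gm15772, at 0.71 ± 0.119 in B1 (adjusted p = 0.00103) and 1.01 ± 0.119 in B2B1 (adjusted p = 9.2e-05). Rps27l stood at 0.688 ± 0.0364% of the Rps27 level in B2, 1.76 ± 0.362% in B2B1 and 1.39 ± 0.104% in B1, with no overlap between any 2 groups (exact permutation p = 0.1 each, the smallest possible, and 0.135 adjusted). B2B1 and B1 all but touched, at 1.514% in B2B1 library 2 and 1.506% in B1 library 2. The Rps27l levels of B2B1 and B1 overlapped and were not called apart (log2 fold change 0.298). Within B2B1 the Rps27l level was highest in library 1, the library with the highest cell cycle and macrophage sums. Rps27l lies on chromosome 9 from 66946086 to 66949516.

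Rps15a, a small-subunit gene at a low level for the family, was at 382.9 ± 12.9 TPM in B2, 366 ± 16.9 in B2B1 and 346.5 ± 7.47 in B1. It was called lower in B1 (log2 fold change −0.14, adjusted p = 0.0499, a call kept in 7 of the 23 alternatives) and not in B2B1 (−0.07, adjusted p = 0.315). Median-of-ratios scaling turned its direction, to 0.01 in B1 and to a called 0.16 in B2B1.

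In the large subunit, 48 of the 51 genes were tested, of which 17 were higher and 2 lower in B1 (35.4% and 4.17%), and 31 higher and 1 lower in B2B1 (64.6% and 2.08%), beside the same background. The 4 stalk genes did not move together. The stalk is the arm of the large subunit that recruits the translation factors, with the P0 protein (Rplp0) at its base, P1 and P2 (Rplp1, Rplp2) along it, and the Rpl12 protein beside P0 on the ribosomal RNA. Rplp0 was at 2430, 2585 and 2602 TPM in B2, 4017, 4664 and 4032 in B2B1, and 3794, 4359 and 3677 in B1. The 2 peritoneal groups overlapped each other and lay clear of B2. Its log2 fold change was 0.63 ± 0.0872 in B1 (adjusted p = 0.000338) and 0.74 ± 0.0872 in B2B1 (adjusted p = 9.3e-05), and it held in all 23 alternatives.

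Rpl12 went down: 5079, 5438 and 5528 TPM in B2, 3847, 5141 and 4397 in B2B1, and 4350, 4615 and 3986 in B1. One B2B1 library, the second, was within the B2 range, and all B1 libraries were below it. The log2 fold change was −0.31 ± 0.107 in B1 (adjusted p = 0.0361), called in 13 of 23 alternatives, and −0.27 ± 0.107 in B2B1 (adjusted p = 0.0509), which did not pass. As a ratio, Rplp0 per Rpl12 was 0.475 ± 0.00382 in B2, 0.956 ± 0.0765 in B2B1 and 0.913 ± 0.0371 in B1. One common factor per library leaves this ratio as it is. It did not overlap between B2 and either other group (exact permutation p = 0.1, the smallest possible, and 0.135 adjusted).

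Rplp1 was at 7874, 8334 and 8278 TPM in B2, 10972, 11781 and 11021 in B2B1, and 9722, 10721 and 9727 in B1, with log2 fold changes of 0.46 ± 0.0695 in B2B1 (adjusted p = 0.000381) and 0.30 ± 0.0695 in B1 (adjusted p = 0.00597). Rplp2, its partner, was at 4668 ± 175 TPM in B2, 4666 ± 255 in B2B1 and 4641 ± 314 in B1, with log2 fold changes of −0.00 ± 0.0726 and −0.01 ± 0.0726 that did not pass under the deposited scale, although median-of-ratios scaling gave a called 0.23 in B2B1. Rplp1 per Rplp2 was 1.75 ± 0.0225 in B2, 2.42 ± 0.0703 in B2B1 and 2.17 ± 0.022 in B1, with no overlap between any 2 groups.

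**Figure D3:**
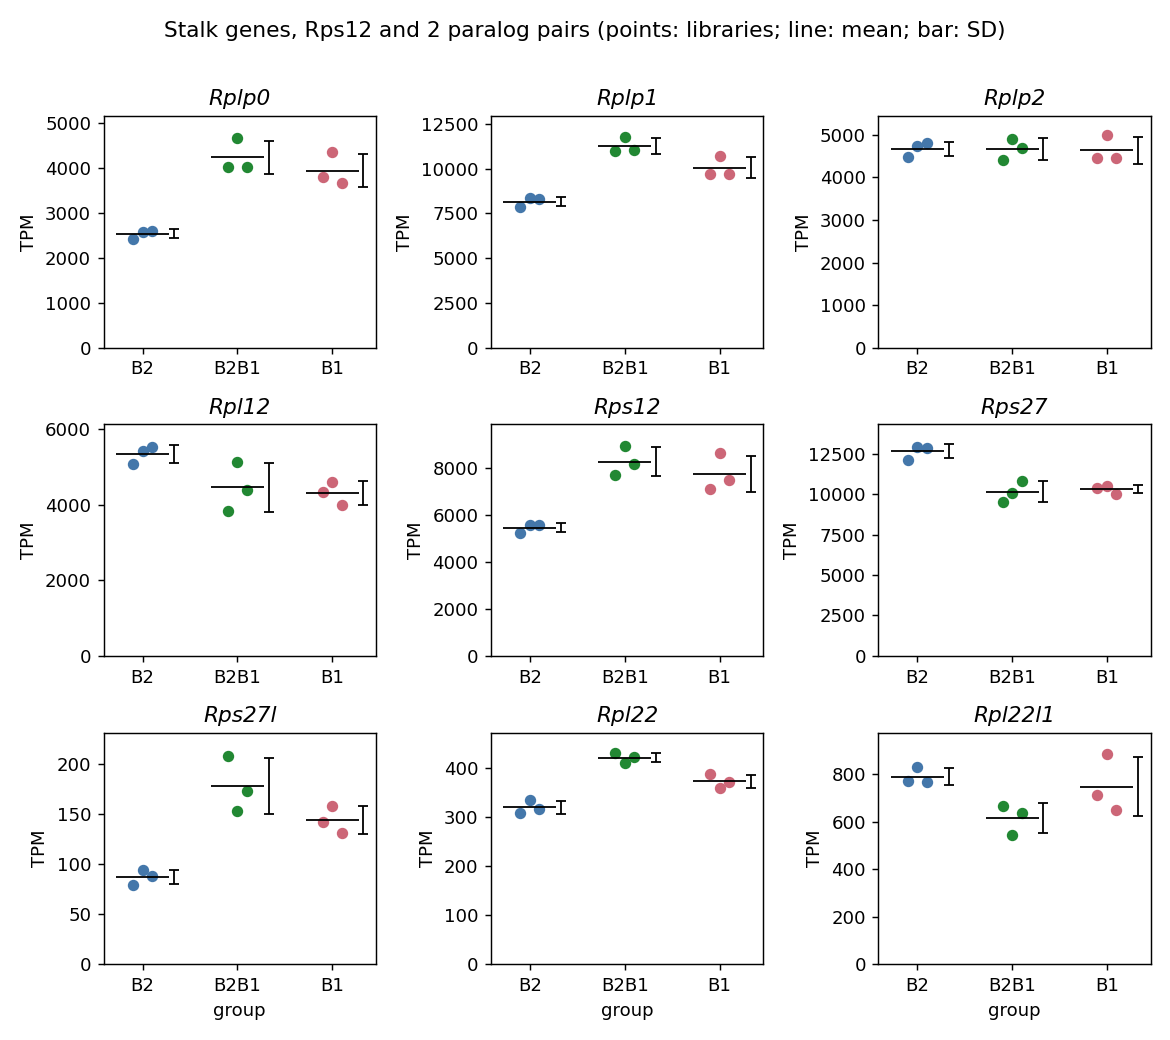
TPM of the 4 stalk genes, Rps12 and the paralog pairs Rps27 and Rps27l, and Rpl22 and Rpl22l1, per library (points), with the group mean (line) and SD (bar); axes start at 0. Rplp0, Rplp1, Rps12 and Rps27l are lowest in B2, Rps27 is highest in B2, and the Rplp2 groups overlap.

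Rpl14, a large-subunit surface protein, was at 1464, 1601 and 1504 TPM in B2, 2095, 2169 and 2150 in B2B1, and 2178, 2183 and 2085 in B1. Both peritoneal groups shared a narrow range well above B2, with log2 fold changes of 0.50 ± 0.0551 in B1 (adjusted p = 9.1e-05) and 0.49 ± 0.0551 in B2B1 (adjusted p = 6.9e-05).

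Rpl22, an RNA-binding protein needed for αβ T cell development, and its paralog Rpl22l1 moved apart in B2B1. Rpl22 was at 310, 335 and 316 TPM in B2, 431, 412 and 424 in B2B1, and 388, 361 and 372 in B1, 3 ranges that do not overlap. Its log2 fold change was 0.40 ± 0.0528 in B2B1 (adjusted p = 0.000183) and 0.22 ± 0.0528 in B1 (adjusted p = 0.007). Rpl22l1 was at 769, 830 and 767 TPM in B2, 665, 543 and 634 in B2B1, and 710, 885 and 648 in B1. It was called lower in B2B1 (−0.36 ± 0.118, adjusted p = 0.0231) and not in B1 (−0.09 ± 0.118, adjusted p = 0.554), and the difference between B2B1 and B1 did not pass (−0.28, adjusted p = 0.135). Rpl22l1 per Rpl22 was 2.46 ± 0.0324 in B2, 1.45 ± 0.119 in B2B1 and 2.01 ± 0.387 in B1. B1 library 2, with the high cell cycle sum, had a ratio of 2.45, in the B2 range, and the other B1 libraries had 1.83 and 1.74. Rpl22 lies on chromosome 4 from 152325742 to 152334071 and Rpl22l1 on chromosome 3 from 28805436 to 28807424.

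Rpl7 and its paralog Rpl7l1 stood at very different levels. Rpl7 was at 3193 ± 97 TPM in B2, 3640 ± 120 in B2B1 and 3479 ± 88.4 in B1, and only the B2B1 value passed (log2 fold change 0.19, adjusted p = 0.0164; B1 0.12, adjusted p = 0.0944). Rpl7l1 was at 74.85 ± 1.8, 76.23 ± 4.41 and 75.69 ± 4.96 TPM, with no call in any comparison.

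Of the 4 X-linked members, Rpl39, Rpl10 and Rps4x were higher in both groups than in B2, and Rpl36a was called in neither. Rpl39, a short protein lining the exit tunnel, was at 4491 ± 298 TPM in B2, 5941 ± 171 in B2B1 and 5635 ± 348 in B1 (log2 fold change 0.41, adjusted p = 0.00119, and 0.33, adjusted p = 0.00509). Rpl10, which completes the tRNA-binding face of the large subunit, was at 3121 ± 16.7, 4110 ± 101 and 3884 ± 98.7 TPM (0.40, adjusted p = 0.000187, and 0.32, adjusted p = 0.00103). Rps4x rose less, from 4129 ± 103 to 4771 ± 115 and 4689 ± 146 TPM (0.21, adjusted p = 0.0104, and 0.18, adjusted p = 0.0231). For Rpl36a the means were 2146 ± 179, 2391 ± 43.4 and 2190 ± 155 TPM. With Xist class (a level above 10 TPM or not) as a covariate, 3 libraries being below it, the calls of Rpl39 and Rpl10 remained.

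Rpl5 and Rpl11, which form the 5S ribonucleoprotein particle and can bind the p53 regulator Mdm2, were called higher in B2B1 and not in B1. Rpl5 was at 1427 ± 36.4 TPM in B2, 1660 ± 31.4 in B2B1 and 1556 ± 33.1 in B1, with log2 fold changes of 0.22 (adjusted p = 0.00416) and 0.13 (adjusted p = 0.0601). Quantile normalization turned the B2B1 value to −0.09, without a call. Rpl11 was at 3594 ± 219, 4172 ± 24.2 and 3982 ± 300 TPM (0.22, adjusted p = 0.0288, and 0.15, adjusted p = 0.126), and its B2B1 call held in 14 of the 23 alternatives. Neither gene differed beyond the threshold between B2B1 and B1.

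The smallest called rises were those of Rpl24 in B1 and of Rpl7, Rpl27 and Rpl21 in B2B1. Rpl24, at the bridge between the subunits, was at 1387 ± 63.6 TPM in B2 and 1568 ± 30.8 in B1 (log2 fold change 0.18, adjusted p = 0.0217), and quantile normalization turned it to −0.02. Rpl27 was at 1642 ± 20.5 TPM in B2 and 1879 ± 145 in B2B1 (0.19, adjusted p = 0.0343), and the same normalization turned it to −0.07.

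Rpl26, at the exit of the peptide tunnel, and Gm15772, a processed pseudogene, have to be read together, because their sequences are nearly the same. Over the 438 coding bases of Rpl26 the pseudogene differs at 2 (99.54% identity): C177T and T288C, with positions counted from the A of the start codon and the Rpl26 base first. Both sites are shown with 20 bases on each side, the differing base in capitals, from GENCODE M21 transcripts on GRCm38.
Rpl26, position 177 (chromosome 11, in 2 exon blocks): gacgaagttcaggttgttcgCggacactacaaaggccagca
Gm15772, position 177 (chr5:3236587-3236627, plus strand): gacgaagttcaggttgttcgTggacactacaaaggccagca
Rpl26, position 288 (chr11:68903278-68903318, plus strand): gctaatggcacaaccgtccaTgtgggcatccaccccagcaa
Gm15772, position 288 (chr5:3236698-3236738, plus strand): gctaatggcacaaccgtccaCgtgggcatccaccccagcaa

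The Rpl26 gene spans 68901583 to 68906989 on chromosome 11 and Gm15772 spans 3236431 to 3236868 on chromosome 5, with no intron. The 2 blocks of the first Rpl26 window are 68902431 to 68902442 and 68903179 to 68903207. Of the 408 words of 31 bases in the pseudogene, 346 (84.8%) also occur in an Rpl26 transcript and 62 do not. Words found only in Rpl26, which can also tell the 2 apart, were not counted. One Rpl26 transcript has 526 bases, so part of it lies outside the 438 coding bases compared.

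Rpl26 was listed at 3836, 3932 and 4053 TPM in B2, 4220, 4470 and 4265 in B2B1, and 2025, 1962 and 1877 in B1. Gm15772 was listed at 7.91, 5.73 and 5.75 TPM in B2, 11.2, 10.3 and 8.22 in B2B1, and 2369, 2244 and 2187 in B1. The B1 libraries alone were low in the first and high in the second. Taken singly, the log2 fold change of B1 against B2 was −1.01 ± 0.0574 for Rpl26 (adjusted p = 1.5e-06) and 8.26 ± 0.131 for Gm15772 (adjusted p = 1.2e-09). In B2B1 against B1 it was 1.14 for Rpl26 (adjusted p = 1.1e-05) and −7.71 for Gm15772 (adjusted p = 8.2e-09).

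The sum of the pair was 3947 ± 108 TPM in B2, 4328 ± 134 in B2B1 and 4222 ± 166 in B1. With both in 1 row, an alternative chosen after the values were seen, the log2 fold change of B1 against B2 was 0.10 (adjusted p = 0.197). Gm15772 held 0.164 ± 0.036% of the pair in B2, 0.229 ± 0.0359% in B2B1 and 53.7 ± 0.298% in B1. Within B1 the 3 libraries had 53.92%, 53.35% and 53.81%, a far narrower range than the gap to the other groups. The levels of either gene on its own are uncertain, because most of the pseudogene's sequence also occurs in Rpl26, and how the deposited values divided these reads was not tested.

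**Figure D4:**
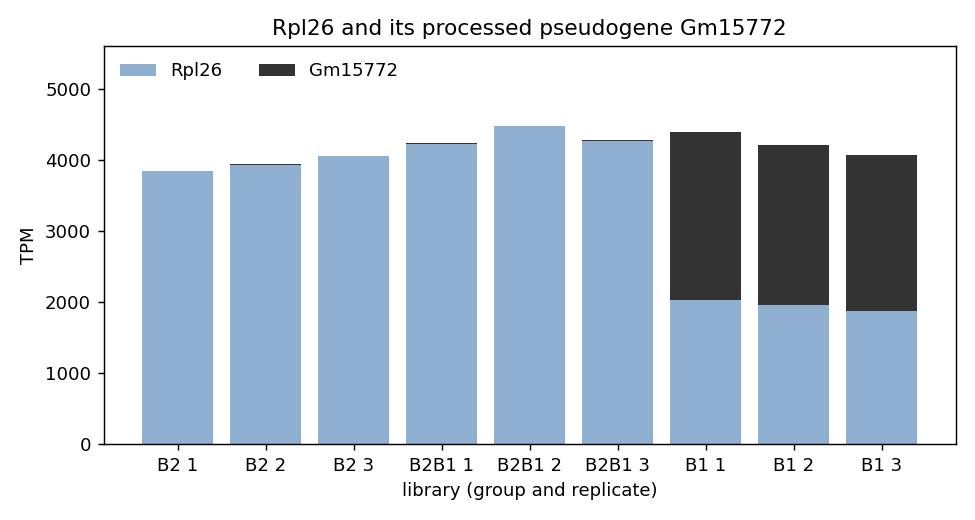
TPM of Rpl26 (blue) and Gm15772 (black), stacked, in each of the 9 libraries. The stacks reach 3843 to 4480 TPM everywhere, while the black part is visible only in the 3 B1 libraries, where it makes up 53.35% to 53.92%.

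To separate the order within the family from a shift of the whole family, each library was also centred on the median of the 79 members with a mean above 100 TPM. Gm15772 reaches this mean only through its B1 levels. On the centred scale 12 members were higher and 12 lower in B1 than in B2, with 13.5% and 42.6% of all genes called. In B2B1, 23 were higher and 14 lower (14.6% and 53.6% of all genes). Centring holds the members near 0 and moved the all-gene median in B1 from −0.14 to −0.25. The split of members and the all-gene shares thus follow in part from the centring and are not compared. The members' higher share in B1, 15%, is near the 13.5% of all genes. Only the order within the family is read here. The higher group in B1 included Gm15772, Rps27l, Rplp0, Rps12, Rpl14, Rpl41, Rps9, Rpl39, Rpl10, Rplp1 and Rps27a, with relative log2 fold changes from 0.19 to 8.15. Rps27, Rpl12, Rps20, Rps29, Rps15a and Rpl31 were among the lower group in both comparisons, at −0.41, −0.42, −0.29, −0.30, −0.26 and −0.28 in B1. Rplp2 was lower relative to the family in B2B1 (−0.17 ± 0.063, adjusted p = 0.0342). Between B2B1 and B1, Rpl26 was higher (1.09) and Rpl22l1 (−0.33 ± 0.093, adjusted p = 0.039) and Gm15772 (−7.77) lower, at a background of 4.83% and 12.8%. These calls depend on how the Rpl26 pair enters the median. With the pair in 1 row, Rpl22l1 was not called between B2B1 and B1 (−0.29 ± 0.099, adjusted p = 0.0805), Rpl3 and Rpl7a were called higher there, and the lower calls in B1 against B2 went from 12 to 18.

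How many members passed depended on the scaling between libraries. Under median-of-ratios factors, 55 were higher and 1 lower in B1, and 70 and 0 in B2B1, with 25.6% and 31.5% of all genes called higher. These factors moved the all-gene median log2 fold change from −0.14 to 0.01 in B1 and from −0.19 to 0.02 in B2B1, and that of the members to 0.30 and 0.43. Quantile normalization gives every library the same set of values, also at the top, where the members lie. It left 17 higher and 8 lower in B1 and 19 and 11 in B2B1, where 22.3% and 26.8% of all genes were called higher, so the members' share of higher calls was not above the background there. Lower calls took 25.8% and 31.9% of all genes. This came with member medians of 0.04 and 0.03 where those of all genes were −0.05 and −0.06. In B2B1 against B1 the counts were 10 and 1 by median-of-ratios, where 9.79% and 8.05% of all genes were called. They were 1 and 2 by quantile normalization (8.22% and 8.86% of all genes). Rplp0, Rps27l, Rps12, Rpl14, Rps9, Rpl39, Rpl10, Rpl41, Rps27a and Rpl22 were called higher in B1 and in B2B1 than in B2 under the deposited scale and all 23 alternatives. None of the 4 lower calls in B1 and the 2 in B2B1 held in all.

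**Figure D5:**
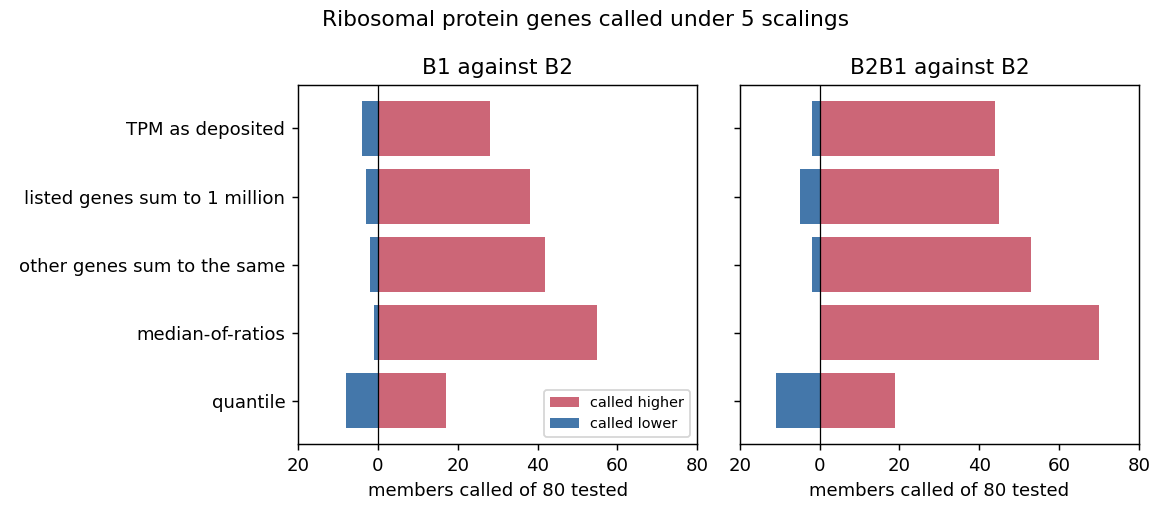
Members called higher (red, to the right) and lower (blue, to the left) of the 80 tested, under the deposited TPM and 4 other scalings, for B1 and B2B1 against B2. Bars start at 0; the higher calls run from 17 to 55 in B1 and from 19 to 70 in B2B1.

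Single libraries also moved the counts. Without B2 library 1, which had the lowest member share, the higher calls in B1 went from 28 to 14, where 15.6% of all genes were called higher. The members' share of higher calls was then near that of all genes. Without B1 library 2 the higher calls went to 18, where 18.1% of all genes were called higher. In B2B1 against B2 the higher calls stayed between 31 and 47, with 18.6% and 22.2% of all genes called higher in those fits. Without B1 library 2, the one with the high cell cycle sum, 11 members were called higher in B2B1 than in B1 in place of 3. In that fit 9.17% of all genes were called higher. B1 library 2 and B2B1 library 1 were also left out together, a choice made after the data were seen. This gave 17 higher and 7 lower in B1 against B2 (18.8% and 37.2% of all genes), and 9 higher in B2B1 against B1 (7.8%).

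Other genes of the translation system were read from lists drawn up by role. Of 24 genes of translation factors and further mRNAs with a TOP motif, 15 were higher and 3 lower in B1 than in B2 (median log2 fold change 0.25, all genes −0.14), and 20 and 3 in B2B1 (0.39, all genes −0.19). Nap1l1, a histone chaperone, was at 560 ± 9.24 TPM in B2, 1154 ± 59.1 in B2B1 and 847 ± 42.9 in B1 (log2 fold change 1.04, adjusted p = 1e-06, and 0.60, adjusted p = 4.7e-05). Eif4b, a cofactor of the initiation helicase, was at 224 ± 1.87, 397 ± 29.1 and 364 ± 24.5 TPM (0.82, adjusted p = 1.2e-05, and 0.69, adjusted p = 4.6e-05). Npm1, the nucleolar protein nucleophosmin, was at 696 ± 33.5, 1110 ± 83.3 and 1009 ± 78.0 TPM (0.67, adjusted p = 8.4e-05, and 0.53, adjusted p = 0.000482). The 3 lower genes were Eif4a2, a helicase of initiation (632 ± 36.2, 368 ± 27.4 and 477 ± 17.3 TPM), and the snoRNA hosts Gas5 and Snhg1, with log2 fold changes of −0.78, −0.35 and −0.53 in B2B1 and −0.40, −0.23 and −0.51 in B1. Gas5 lost its call in both under median-of-ratios scaling. The higher calls in the list stayed at 13 to 20 in B1 and 17 to 20 in B2B1 under the other 4 scalings. In B2B1 against B1, 5 were higher, Nap1l1 (0.45, adjusted p = 0.00148), Eif3h, Pabpc1, Eif3e and Naca, and Eif4a2 was lower (−0.38, adjusted p = 0.00737). These were 20.8% and 4.17% of the list, against 6.93% and 12.1% of all genes.

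The 76 genes of the mitochondrial ribosome, which translates mitochondrial mRNAs, had no common direction on the deposited scale. In B1, 8 were higher and 11 lower (10.5% and 14.5%, against 18% and 33.9% of all genes; median −0.04). In B2B1 the counts were 16 and 14 (21.1% and 18.4%, against 21% and 42%; median −0.01). These medians turned to 0.11 and 0.21 under median-of-ratios scaling (20 higher and 5 lower, and 34 and 3), to 0.07 and 0.15 under quantile normalization (17 and 6, and 27 and 4), and to 0.03 and 0.04 with the other genes summing to the same. The cytosolic medians under the first of these were 0.30 and 0.43, as given above. Mrpl52 stood out at 177 ± 10.9 TPM in B2, 422 ± 32.6 in B2B1 and 383 ± 12.0 in B1 (log2 fold change 1.24, adjusted p = 1e-06, and 1.11, adjusted p = 4e-06). Mrpl38 was lower, at 51.5 ± 6.60, 29.0 ± 4.71 and 29.7 ± 3.23 TPM. In B2B1 against B1, 3 were higher (Mrpl16, Mrpl55 and Mrpl3) and 0 lower by limma at the adjusted threshold, with 6 at an unadjusted p under 0.05 in either direction. The 3 were 3.95% of the list, against 6.93% of all genes called higher and 12.1% lower.

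Among 18 tested genes known to regulate ribosomal protein genes or their translation, 3 were higher and 4 lower in B1 (Myc, Eif4ebp1 and Rheb against Max, Mlst8, Rps6kb2 and Yy1), and 4 and 4 in B2B1, where Ubtf joined the higher ones. The shares called higher, 16.7% and 22.2%, are near the 18% and 21% of all genes, so the counts say nothing particular to the list. Under median-of-ratios scaling the counts were 5 and 1, and 7 and 2. Myc, a transcription factor that drives ribosome synthesis, was at 67.1 ± 16.0 TPM in B2, 116 ± 26.5 in B2B1 and 196 ± 46.2 in B1, with a log2 fold change of 1.53 in B1 (adjusted p = 0.000613) and 0.79 in B2B1 (adjusted p = 0.0163). Its partner Max fell from 119 ± 0.773 TPM to 83.9 ± 7.64 in B2B1 and 95.0 ± 6.64 in B1, and kept the B2B1 call alone under median-of-ratios scaling. Eif4ebp1, a repressor of cap-dependent translation, was at 26.9 ± 1.10, 37.2 ± 1.46 and 38.5 ± 4.49 TPM. Ubtf, a factor of RNA polymerase I, was higher in B2B1 (124 ± 6.60 TPM) than in B2 (85.5 ± 10.4) and B1 (93.3 ± 6.81), with log2 fold changes of 0.54 (adjusted p = 0.00101) and 0.41 (adjusted p = 0.0185). Rps6kb2, an S6 kinase, was at 53.9 ± 2.39, 39.9 ± 2.40 and 40.6 ± 3.45 TPM. Ubtf was the only call of the list in B2B1 against B1 by limma, with 6 of the list at an unadjusted p under 0.05 in either direction.

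Of 9 chaperones and importers of ribosomal proteins, 1 was higher and 2 lower in each comparison with B2 (11.1% and 22.2%), below the shares of all genes. The higher one was Ipo7 in B1 and Ipo5 in B2B1, both importins, each with an adjusted p just under the threshold (0.0477 and 0.0407). The lower ones were Bccip, a chaperone of RPL23 (96.9 ± 4.32, 72.4 ± 2.43 and 80.5 ± 9.38 TPM in B2, B2B1 and B1), and Tsr2, which carries RPS26 (10.6 ± 0.507, 7.90 ± 0.531 and 8.26 ± 1.26), and neither was called in any comparison under median-of-ratios scaling. Genes of ribosomal proteins whose symbols the rule leaves out were split. Rpl36al, a copy of Rpl36a, was higher in B1 (755 ± 43.1 against 974 ± 72.0 TPM, log2 fold change 0.37, adjusted p = 0.00188) and in B2B1 (1003 ± 19.3 TPM, 0.41, adjusted p = 0.000699). Fau, the precursor of RPS30, was lower in B1 (4788 ± 111 against 4173 ± 239 TPM, −0.20, adjusted p = 0.0328, not called under median-of-ratios scaling). Under quantile normalization Rpl36al was called in neither B1 nor B2B1 (0.20 and 0.23). Fau was then called lower in both (−0.22 and −0.22). Of the 6 other annotated pseudogenes that were tested, Rplp2-ps1 was lower in both, at 10.4 ± 1.85 TPM in B2, 5.42 ± 0.680 in B2B1 and 6.19 ± 2.05 in B1, and the other 5 did not pass.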

How the data were processed

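Expression was measured by RNA-seq of polyA RNA in 9 libraries, grouped by their labels. The authors deposited TPM per gene symbol. The submitters' processing notes name kallisto, CASAVA 1.8.2 and build mm10. Neither the transcript set nor kallisto's version is given in the sources used here. TPM keep no depth, so no counting interval could be given, and each value shifts with the rest of its library. No 2 libraries were identical (0 of 36 pairs). The listed genes summed to 894515 to 943043 TPM per library.

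A mean of 1 TPM or more over the libraries left 11099 genes, whose log2(TPM + 1) entered the tests; the pseudocount understates changes at low levels. All 3 comparisons came from limma 3.58.1 (R 4.3.3; lmFit, contrasts.fit, eBayes with trend), in one model over 9 libraries without covariates, and p-values were adjusted by Benjamini-Hochberg over all genes tested. A repeat centred each library on the median of the members with a mean of at least 100 TPM. Single values per library were compared by exact two-sided permutation tests. The test was checked on simulated data. The smallest change simulated, 1.25 fold, was recovered in 16% of genes for B1 against B2, 18% for B2B1 against B2 and 14% for B2B1 against B1. Only 200 of the 11099 genes were changed in each simulation, fewer than were called in the data. The adjustment is stricter with fewer changes, so these shares do not give the recovery rate in the data. The median rises of the members were below 1.25 fold and were not simulated, so a member without a call may still differ.

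The members, gene lists and rules were chosen with earlier results of these data known. Named were, per comparison, the called members at either end of the log2 fold change (5 each), the members with the 5 highest and the 5 lowest tested mean levels, those next to the limit of 1 TPM, paralogs and their partners, stalk, X-linked and 5S particle genes, Rpl26 and Gm15772, single exceptions to a count, and up to 4 genes of each further list per comparison by adjusted p. Rps9, members named for their change relative to the family or for their stability, Cd5, Cd79a, Cd3e, Gas5, Snhg1 and further genes given to spell out a small count (Eif3e, Naca, Rheb, Mlst8, Yy1, Ipo5, Ipo7 and others) were chosen after their values were seen.

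Values of a few genes are not reported here. All 83 members were matched to GENCODE M21. Alternatives covered pseudocounts of 0.1 and 0.5, no filter and a mean of at least 5 TPM, 4 other scalings, only the groups compared, a replicate block, Xist class, library weights and leaving out each library. A change of sign was counted as a reversal where the value was called in either setting. Plots used matplotlib 3.10.9 under Python 3.11.15.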

Additional observations from a re-analysis of the deposited data

How the results depend on the processing

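Recomputed under the alternatives, single named genes kept their call, or the lack of one, in 4077 cases. They lost a call in 299 and gained one in 99. In 7 cases a value called in either setting changed sign. Sign changes without a call in either setting were not counted as changes. Counts below are of members called. With no filter, B1 against B2 gave 14 higher and 2 lower (13% and 24.6% of all genes) and B2B1 against B2 gave 1 lower (31.8%). Relative to the family, the higher counts were 6 and 14 (9.27% and 10.6%), and B2B1 against B1 gave 1 lower (7.31%). More genes are tested there, so the adjustment is stricter. A mean of at least 5 TPM gave 4 lower in B2B1 against B2 (43.9% of all genes). Median-of-ratios scaling gave 55 higher and 1 lower in B1 (25.6% and 22.2% of all genes) and 70 and 0 in B2B1 (31.5% and 27.3%). In B2B1 against B1 it gave 10 higher (9.79%). The log2 ratios of the summed members were then 0.276 in B1 and 0.415 in B2B1, in place of 0.120 and 0.187. Quantile normalization gave 17 and 8 in B1 against B2 (22.3% and 25.8% of all genes) and 19 and 11 in B2B1 against B2 (26.8% and 31.9%). It gave 1 and 2 in B2B1 against B1 (8.22% and 8.86%), and a summed log2 ratio of 0.023 in B2B1. With the listed genes of each library brought to a common sum, 5 were lower in B2B1 against B2 (43.6% of all genes). In B2B1 against B1, 1 was then higher (6.29%). With the other genes summing to the same, 2 were lower in B1 (28.3%) and 1 was higher in B2B1 against B1 (6.77%). Fitting only the groups compared gave 4 lower in B2B1 against B2 (44.2% of all genes). In B2B1 against B1 it gave 1 higher (4.2%) and, relative to the family, 1 lower (5.87%). Xist class gave 2 lower in B1 (31.2% of all genes). In B2B1 against B1 it gave 1 higher (3.08%) and, relative to the family, 1 lower (3.78%). Library weights gave 7 lower in B1 (37.8% of all genes) and 4 lower in B2B1 (45.3%). Relative to the family they gave 4 higher in B2B1 against B1 (6.32%).

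The replicate block gave 4 lower in B2B1 against B2 in place of 2 (41.2% of all genes). Relative to the family it gave 1 lower in place of 2 in B2B1 against B1 (10.2%). It moved no other count by over 1.5 times. Libraries with the same number were no more alike than others. Deviations from the group mean correlated between −0.058 and 0.123 for the same number and between −0.205 and 0.125 for different numbers. With 3 libraries per group, this cannot show whether the samples were paired.

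Leaving out each library gave 14 to 30 higher and 2 to 6 lower in B1 against B2 (15.4% to 18.3% and 27.2% to 35.4% of all genes). In B2B1 against B2 it gave 31 to 47 and 1 to 3 (18.3% to 22.2% and 36.3% to 44.1%). In B2B1 against B1 it gave 1 to 11 and 1 to 1 (4.81% to 9.17% and 7.06% to 12.8%). Relative to the family these were 6 to 14 and 8 to 13 (11% to 15.9% and 34.1% to 42.5%), 13 to 24 and 10 to 16 (12.8% to 16% and 46.9% to 56%), and 1 to 3 and 1 to 2 (3.21% to 5.78% and 5.68% to 23%). The summed log2 ratio ran from 0.078 to 0.161, 0.156 to 0.206 and 0.026 to 0.109. The higher counts relative to the family were 6 without B2 library 1 or B1 library 3 and 7 without B2 library 3 in B1, and 13 and 15 without B2 libraries 1 and 3 in B2B1. The lower count in B1 was 2 without any one B2 library, B2B1 library 3 or B1 library 1 or 3, and that in B2B1 was 1 without B2 library 2. The higher count in B2B1 against B1 was 1 without any one B2 library, B2B1 library 2 or 3 or B1 library 1 or 3; relative to the family it was 2 without B2B1 library 2 and 3 without B1 library 2, and the lower count was 1 without any library other than B2B1 library 1.

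A pair of alternatives was chosen after the data were seen. With Rpl26 and Gm15772 in 1 row, B2B1 against B1 had 0 lower (12% of all genes). Relative to the family it had 2 higher and 0 lower (5.82% and 9.7%). The merged pair drops its own opposite calls by construction, and it also changes the median on which the libraries are centred. Without B2B1 library 1 and B1 library 2, there were 17 higher and 7 lower in B1 against B2 (18.8% and 37.2% of all genes). In B2B1 against B1 there were 9 higher (7.8%), and 2 relative to the family (4.92%). Among values called in either setting, signs changed for Rpl26 in B1 (0.097, pair in 1 row). Under median-of-ratios scaling they changed for Rps15a in B1 (0.014) and B2B1 (0.163) and Rplp2 in B2B1 (0.227). Under quantile normalization they changed for Rpl24 in B1 (−0.023), Rpl27 in B2B1 (−0.065) and Rpl5 in B2B1 (−0.089). Other than where said, the cause was not tested. TPM keep no depth, so the counting error behind a value is unknown.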
